A study of Homo sapiens with 10 samples.

Results

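The genes described here encode collagens, laminins, a set of other matrix proteins, and the enzymes that hydroxylate or crosslink collagen. They were chosen by symbol: every collagen chain, every laminin chain and 21 named glycoproteins and enzymes, which gave 77 of 20263 listed genes, made up of 44 collagen chains, 12 laminin chains and the 21. The family was put together with results of the LY against DMSO comparison already known, so its differences between LY and DMSO are given as a description. PANC-1, a long-established human cell line derived from a carcinoma of the pancreas, received 20 µM LY for 24 h in 5 libraries, or DMSO in 5 libraries. LY is lycorine, per the series title, a plant alkaloid known to block protein synthesis, and DMSO is its solvent. The design asks how the compound changes transcript levels in these cells. All libraries come from 1 cell line, and no source says that those of a group came from separate cultures, so the errors cover the spread between these libraries, which may be technical.

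Extracellular matrix takes 2 main forms. Interstitial matrix is built on fibrils of collagens such as I, III and V. Basement membranes, the sheets under epithelia, are built from a collagen IV network and a laminin network, tied together by nidogen and the proteoglycan perlecan. A collagen molecule is a trimer of chains whose prolines and lysines are hydroxylated in the endoplasmic reticulum, and lysyl oxidases crosslink the secreted protein. A laminin molecule joins 1 alpha, 1 beta and 1 gamma chain. Dense collagen matrix is a known feature of pancreatic carcinoma, where fibroblasts and stellate cells lay down much of it.

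LY-treated cells had less transcript of collagens IV, VI and XVIII, of the laminin chain LAMA5 and of the enzymes P4HA2 and PLOD1, and more of the transmembrane collagen COL17A1, of the laminin chain LAMA2 and of LOX. Levels are TPM, which is scaled for transcript length, so genes can be set beside each other within a library. Of the 77 members, 33 reached a TPM of 1 in 5 or more libraries and were tested in a fit of all such genes (limma on log2(TPM + 1), adjusted p under 0.05). Of these 33 genes, 10 rose (39.8% of all 11663 tested genes rose), 19 fell (24.9% of all tested genes fell) and 4 did not pass. LY and DMSO libraries did not overlap in 25 members, 8 with LY above and 17 with LY below, beside 49.4% of all tested genes. The median log2 fold change was -0.61 over the 33 members and 0.17 over all tested genes. Of the 33, COL13A1 and COL1A1 reached a TPM of 1 in DMSO libraries alone and LOX in LY libraries alone, so these 3 had to differ to be tested.

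Control library NC-2 stood apart: mitochondrially encoded genes held 37.5% of its TPM, against 12.2% to 14.1% in the other controls and 6.43% to 14.9% in the LY libraries. NC-2 had the lowest DMSO value in 25 of the 33 members. Without NC-2, 10 members rose and 18 fell of the 31 then tested. COL13A1 and COL1A1 no longer passed the filter, as happened without any 1 control. Scaling moved the balance of all tested genes. As deposited, 4639 rose and 2899 fell. Median-ratio scaling gave 3977 higher and 3756 lower, quantile scaling 4055 higher and 3694 lower, upper-quartile scaling 3346 higher and 4371 lower, and leaving out mitochondrial genes 3889 higher and 3913 lower. With median-ratio, quantile and upper-quartile scaling, 8 of the 33 members rose and 20, 20 and 21 fell. Without mitochondrial genes the filter was applied again and 35 members were tested, of which 8 rose and 22 fell. The label was checked on markers: the epithelial keratins KRT8 and KRT18 averaged 1344.0 and 1010.0 TPM in LY and 1419.0 and 714 TPM in DMSO. KRT7, another ductal keratin, was below 0.1 TPM on average in both groups, and KRT19 fell, with 21.0 ± 3.47 TPM in LY and 148 ± 16.6 TPM in DMSO. KRT18 rose (log2 fold change 0.50 ± 0.10). SOX9 averaged 166 ± 45.5 TPM in LY and 123 ± 29.1 TPM in DMSO, EPCAM averaged 1.46 ± 0.427 TPM in LY and 0.923 ± 0.354 TPM in DMSO, and both did not pass, nor did KRT8. The 6 ductal markers summed to 2355 to 2759 TPM in LY and 2030.0 to 2720.0 TPM in DMSO. Of 9 fibroblast and stellate cell markers, 4 (DCN, LUM, FAP, MFAP5) were listed at 0 in every library. The sum of these 9 markers was 165 to 242 TPM in LY and 224 to 294 TPM in DMSO, nearly all from RGS5, which fell, and ACTA2, which rose. Of 5 endothelial and leukocyte markers, PECAM1 was listed at 0 throughout and PTPRC and VWF averaged below 0.1 TPM, while CD68 and CDH5 rose. CDH5 reached a TPM of 1 in LY libraries alone, so it had to differ to be tested. The sum of these 5 was 134 to 236 TPM in LY and 34.9 to 47.4 TPM in DMSO, mostly CD68. The part of these marker differences in the results was not tested. In bulk RNA, fewer cells of a kind and less RNA per cell cannot be told apart.

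**Figure D1:**
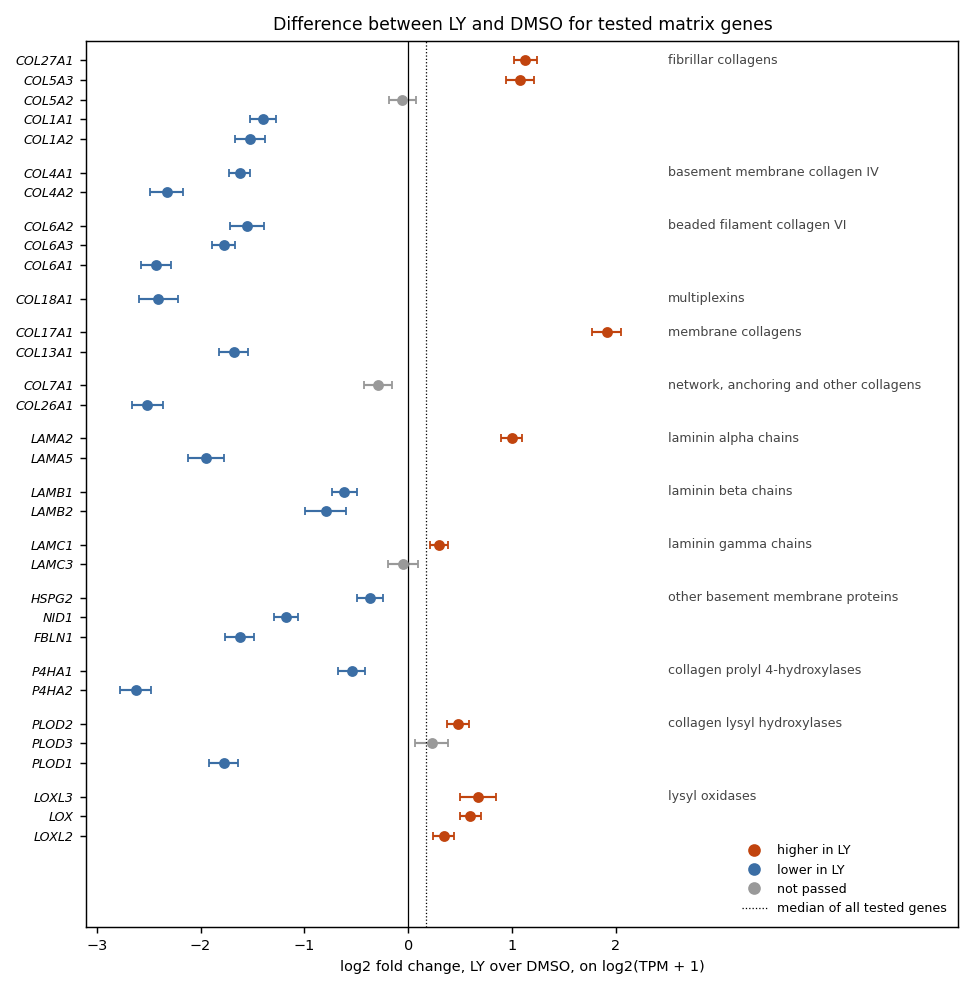
Log2 fold change of LY over DMSO on the log2(TPM + 1) scale for tested members, by role; points are fitted values, bars their SE, and the dotted line is the median of all tested genes (0.17). Collagens IV and VI and both prolyl hydroxylases lie left of 0, and the 3 tested lysyl oxidases right of it. Of these 3, LOX had to differ to be tested, and LOXL2 and LOXL3 did not pass under some alternatives.

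Collagen IV, the network-forming collagen of basement membranes, fell in both expressed chains. COL4A1 (ENSG00000187498) and COL4A2 (ENSG00000134871) lie head to head on chromosome 13. On hg38, GENCODE places COL4A1 at 110148963 to 110307233 on the minus strand and COL4A2 at 110305812 to 110513209 on the plus strand, so the annotated genes overlap at their starts. The 126 bases between their RefSeq starts are shown because both genes read away from this 1 stretch and both fell. Capitals mark any match to the motifs searched, here a CCAAT on the strand shown and 1 GC box.
COL4A1 and COL4A2 (GRCh38.p14, chr13:110307158-110307283, plus strand): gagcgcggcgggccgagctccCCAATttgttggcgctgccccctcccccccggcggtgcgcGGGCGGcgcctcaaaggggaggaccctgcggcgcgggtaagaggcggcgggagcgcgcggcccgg
COL4A2 measured 1.52, 1.89, 1.88, 1.46 and 2.58 TPM in the LY libraries and 16.4, 9.09, 14.6, 14.7 and 12.4 TPM in the DMSO libraries. Every LY value lay far below every DMSO value, and NC-2 was the lowest control. The log2 fold change was -2.32 ± 0.16 (SE). COL4A1 measured 1.44, 1.56, 1.42, 1.23 and 1.55 TPM in LY and 7.52, 5.39, 7.13, 6.43 and 6.24 TPM in DMSO, with no overlap (log2 fold change -1.62 ± 0.10). Within a library the COL4A2 level was 1.06 to 1.66 times that of COL4A1 in LY and 1.69 to 2.29 times in DMSO, so COL4A2 was reduced more than its neighbour, and this ratio does not depend on the scaling of a library. The other 4 chains, COL4A3 to COL4A6, stayed under 0.2 TPM in every library.

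The 3 expressed chains of collagen VI, which forms beaded filaments near basement membranes, fell together. COL6A1 (ENSG00000142156, chromosome 21, 45981737 to 46005050) measured 11.7, 14.6, 13.2, 14.7 and 17.4 TPM in LY and 95.7, 58.5, 93.4, 83.6 and 79.2 TPM in DMSO. Even the lowest control, NC-2, was above 3 times the highest LY library (log2 fold change -2.43 ± 0.15). COL6A2 averaged 14.4 ± 2.11 TPM in LY and 44.8 ± 9.47 TPM in DMSO (SD, n = 5 each; log2 fold change -1.55 ± 0.165). COL6A3, the largest chain, averaged 4.84 ± 0.569 TPM in LY and 19.0 ± 2.37 TPM in DMSO (log2 fold change -1.78 ± 0.11). In LY libraries COL6A1 stood at 0.928 to 1.06 times COL6A2, against 1.69 to 2.07 times in DMSO libraries. The chains COL6A5 and COL6A6 were at or near 0.

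COL18A1, whose product is a basement membrane collagen that releases endostatin, lies on chromosome 21 as well (45405137 to 45513720), near COL6A1 and COL6A2 (46098097 to 46132849). It measured 12.8, 13.1, 12.9, 18.5 and 18.4 TPM in LY and 99.5, 50.6, 98.9, 92.3 and 86.5 TPM in DMSO. All LY libraries were below all controls (log2 fold change -2.41 ± 0.19). COL18A1 overlaps SLC19A1 and a pair of antisense genes on the other strand, and reads of these could not be told apart if strand was not used. The related COL15A1 was listed at 0 in all 10 libraries.

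**Figure D2:**
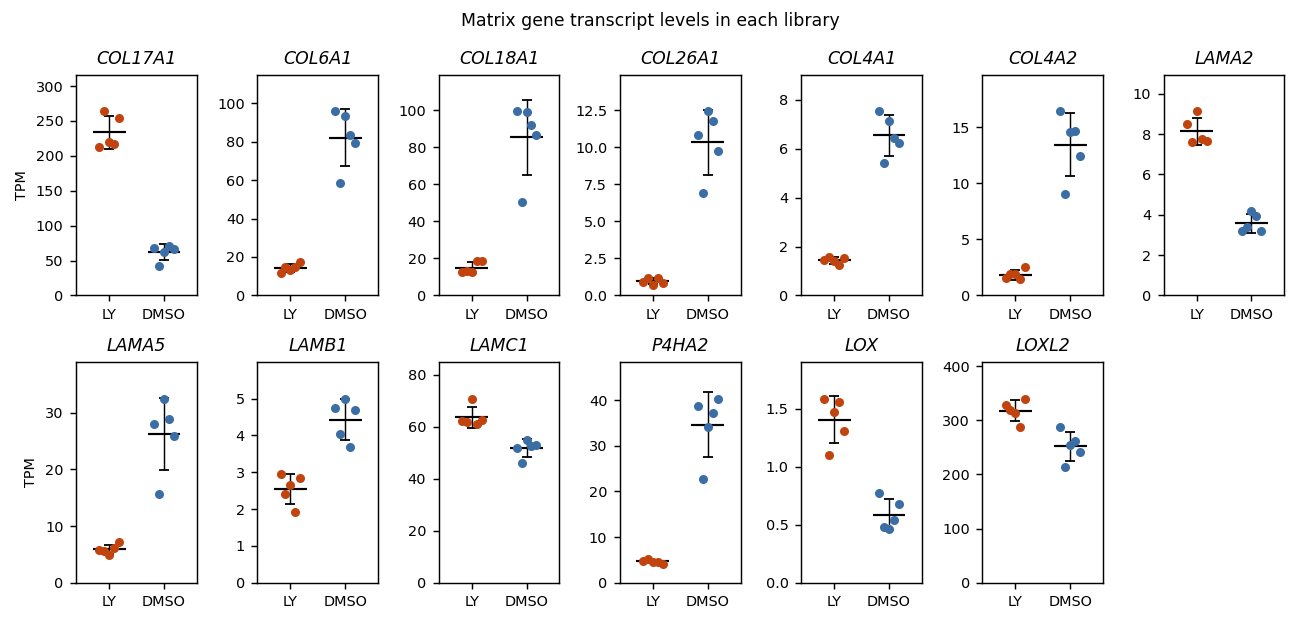
TPM of 13 members in each library (points; LY left, DMSO right), with the mean (line) and SD (bars) of 5 libraries; each vertical axis starts at 0 and has its own range. COL17A1, LAMA2, LAMC1 and LOX show every LY library above every DMSO library, and COL6A1, COL18A1, COL26A1, COL4A1, COL4A2, LAMA5, LAMB1 and P4HA2 show every LY library below.

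The 2 expressed membrane collagens went opposite ways. COL17A1, a transmembrane collagen of epithelial hemidesmosomes (ENSG00000065618, chromosome 10, 104031286 to 104085957), measured 212, 264, 220.0, 218 and 254 TPM in LY and 67.7, 41.9, 62.9, 71.2 and 67.0 TPM in DMSO. The lowest LY library was about 3 times the highest control (log2 fold change 1.91 ± 0.14), the largest increase among the tested members. COL17A1 was the most abundant collagen transcript in LY, and the fifth in DMSO, after COL5A2, COL1A2, COL18A1 and COL6A1. Its level was 11.8 to 20.2 times that of COL18A1 in LY libraries and 0.636 to 0.828 times in DMSO libraries. COL13A1, another transmembrane collagen, was at 0 to 0.295 TPM in LY and 2.06 to 3.44 TPM in DMSO (log2 fold change -1.68 ± 0.14). COL13A1 reached a TPM of 1 in DMSO libraries alone, so it had to differ to be tested. ITGB4 (integrin beta 4), a hemidesmosome partner of COL17A1, averaged 0.243 ± 0.0707 TPM in LY and 3.90 ± 1.19 TPM in DMSO (log2 fold change -1.95 ± 0.16). It reached a TPM of 1 in DMSO libraries alone, so it had to differ to be tested.

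Promoter letters of these genes differ widely, and 4 windows of 250 bases before the RefSeq start are shown: COL17A1 as the largest increase, and COL6A2, LAMA5 and PLOD1 as members that fell.
COL17A1 (GRCh38.p14, chr10:104085881-104086130, minus strand): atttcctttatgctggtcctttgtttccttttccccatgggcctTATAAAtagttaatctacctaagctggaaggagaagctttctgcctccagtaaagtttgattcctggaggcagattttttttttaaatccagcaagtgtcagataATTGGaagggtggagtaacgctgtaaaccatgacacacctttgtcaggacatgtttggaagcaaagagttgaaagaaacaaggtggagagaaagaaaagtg
COL6A2 (GRCh38.p14, chr21:46097862-46098111, plus strand): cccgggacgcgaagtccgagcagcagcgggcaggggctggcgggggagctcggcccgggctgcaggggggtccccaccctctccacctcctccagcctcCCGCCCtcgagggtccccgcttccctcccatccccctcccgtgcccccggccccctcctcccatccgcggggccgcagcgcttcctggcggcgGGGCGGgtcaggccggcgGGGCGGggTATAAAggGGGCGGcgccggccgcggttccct
LAMA5 (GRCh38.p14, chr20:62367313-62367562, minus strand): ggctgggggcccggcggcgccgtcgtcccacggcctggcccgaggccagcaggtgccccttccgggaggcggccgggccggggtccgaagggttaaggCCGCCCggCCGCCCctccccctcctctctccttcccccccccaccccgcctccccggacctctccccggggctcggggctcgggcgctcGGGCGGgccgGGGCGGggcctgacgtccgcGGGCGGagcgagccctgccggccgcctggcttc
PLOD1 (GRCh38.p14, chr1:11934467-11934716, plus strand): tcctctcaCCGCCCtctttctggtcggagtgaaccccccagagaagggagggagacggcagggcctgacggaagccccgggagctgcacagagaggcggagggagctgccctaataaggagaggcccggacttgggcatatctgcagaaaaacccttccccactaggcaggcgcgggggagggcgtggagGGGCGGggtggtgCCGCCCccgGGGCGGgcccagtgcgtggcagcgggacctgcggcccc
The COL17A1 window has a GC content of 40.4% and no GC box, and its TATAAA begins 206 bases before the start. The windows of COL6A2, LAMA5 and PLOD1 have GC contents of 79.6%, 82.8% and 70.4% and hold 4, 5 and 4 GC boxes. These 4 windows do not stand for all members that rose or fell. Among tested members with a RefSeq promoter, a GC box was found for 6 of 8 that rose (75%) and 11 of 16 that fell (68.8%). The ATTGG in the COL17A1 window is a CCAAT on the other strand. RefSeq starts can differ from the ends of the GENCODE genes given here. In COL6A2 a TATAAA begins 32 bases before the start.

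Short motifs were searched on both strands in the 250 bases before the RefSeq start, for the 26 tested members with an entry: the GC box GGGCGG, the TATA box TATAAA, the CCAAT box by its own letters, the AP-1 motif TGANTCA and the TEAD motif GGAATG. Overlapping matches were counted separately, and no motif contains another. COL1A1, COL1A2, COL5A2, COL6A1, LAMC3 and LOXL2 are among those with no entry. A GC box was found for 19 of the 26 members (73.1%, against 76.6% of 9442 tested genes and 46.2% of all 27305 genes with an entry). TATAAA was found for 6 members (23.1%, against 7.38% of tested and 13% of all genes): COL13A1, COL17A1, COL18A1, COL6A2, COL7A1 and P4HA1, of which 1 rose, 4 fell and 1 did not pass. CCAAT was found for 8 members (30.8%, against 41.8% and 37%) and GGAATG for 2, LAMA2 and LOXL3, which both rose (7.69%, against 12.8% and 14.3%). TGANTCA was in none of the 26 windows, against 5.59% of tested and 8.06% of all genes. These matches describe letters and do not show that a factor binds there.

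Fibrillar collagens were mixed, and the levels of partner chains were far apart. COL1A2, the second chain of collagen I, averaged 32.4 ± 3.76 TPM in LY and 96.0 ± 17.7 TPM in DMSO (log2 fold change -1.53 ± 0.14). COL1A1, its main partner, was at 0.229 to 0.601 TPM in LY and 2.57 to 3.82 TPM in DMSO (log2 fold change -1.40 ± 0.12). Both chains fell, and COL1A2 exceeded COL1A1 at least 25.7 times in every library. COL1A1 reached a TPM of 1 in DMSO libraries alone, so it had to differ to be tested. COL5A2, a chain of collagen V, averaged 108 ± 18.4 TPM in LY and 111 ± 12.3 TPM in DMSO and did not pass (log2 fold change -0.056 ± 0.13). Quantile normalization (-0.33) and upper-quartile scaling (-0.32) each called it lower. Its partner COL5A1 did not pass the filter, with 0.166 to 0.267 TPM in LY and 0.937 to 1.82 TPM in DMSO. COL5A3 rose, with 3.47 ± 0.359 TPM in LY and 1.14 ± 0.379 TPM in DMSO, as did COL27A1, with 4.24 ± 0.352 TPM in LY and 1.41 ± 0.318 TPM in DMSO. Their log2 fold changes were 1.08 ± 0.14 and 1.13 ± 0.11, with no overlap between groups. COL3A1, abundant in fibroblasts, did not exceed 0.2 TPM in any library.

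Among the remaining collagens, COL26A1 (ENSG00000160963, chromosome 7, 101362820 to 101559024) measured 0.923, 1.19, 0.700, 1.15 and 0.849 TPM in LY and 10.8, 6.89, 12.4, 11.8 and 9.72 TPM in DMSO. The groups did not overlap (log2 fold change -2.51 ± 0.15 on the log2(TPM + 1) scale, which understates changes of low genes). COL7A1, the anchoring fibril collagen of skin, averaged 0.936 ± 0.207 TPM in LY and 1.38 ± 0.364 TPM in DMSO and did not pass (log2 fold change -0.29 ± 0.13). It was called lower without NC-2 (-0.38), and also with median-ratio (-0.36) and upper-quartile scaling (-0.43) and without mitochondrial genes (-0.40). None of the 10 FACIT collagens, which sit on the surface of fibrils, passed the filter. In all, 10 of 15 tested collagens fell, 3 rose and 2 did not pass, beside the same shares of all tested genes as above. Among the 10, COL13A1 and COL1A1 had to differ to be tested.

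Laminin chains differed in direction by chain. LAMA5, the alpha chain of many adult basement membranes (ENSG00000130702, chromosome 20, 62307955 to 62367312), measured 5.70, 5.68, 4.86, 6.18 and 7.10 TPM in LY and 28.0, 15.7, 32.4, 28.8 and 25.9 TPM in DMSO. All LY libraries were below all controls (log2 fold change -1.95 ± 0.17). LAMA2, the alpha chain best known from muscle, went the other way, with 8.49, 7.62, 9.13, 7.76 and 7.67 TPM in LY and 3.20, 3.38, 4.195, 3.93 and 3.18 TPM in DMSO (log2 fold change 0.999 ± 0.10). In LY libraries LAMA2 was thus the more abundant of these alpha chains, and in DMSO libraries LAMA5 was. LAMA5 overlaps ADRM1 and an antisense gene on the other strand.

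Both expressed beta chains fell. LAMB1 measured 2.95, 2.40, 2.65, 1.92 and 2.83 TPM in LY and 4.75, 4.03, 4.996, 3.68 and 4.70 TPM in DMSO, without overlap (log2 fold change -0.61 ± 0.12). LAMB2 averaged 22.3 ± 2.73 TPM in LY and 40.7 ± 11.5 TPM in DMSO (log2 fold change -0.80 ± 0.19). Its groups overlapped, since NC-2 held 22.4 TPM and the highest LY library 26.9 TPM, and it did not pass an exact Wilcoxon test.

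LAMC1, the gamma chain of most laminins (ENSG00000135862, chromosome 1, 183023460 to 183145592), was the most abundant laminin transcript, with 62.3, 62.0, 70.8, 60.9 and 62.5 TPM in LY and 52.0, 45.9, 55.0, 52.5 and 53.2 TPM in DMSO. It rose as deposited (log2 fold change 0.30 ± 0.085), but did not pass with median-ratio (0.15), quantile (0.030) or upper-quartile scaling (0.030) or without mitochondrial genes (0.14). The chains LAMA3 and LAMB3 did not pass the filter. LAMA3 was at 0.163 to 0.405 TPM in LY and 0.480 to 0.732 TPM in DMSO, and LAMB3 at 0.127 to 0.214 TPM in LY and 0 to 0.0259 TPM in DMSO. LAMC3 averaged 2.55 ± 0.545 TPM in LY and 2.69 ± 0.620 TPM in DMSO and did not pass (log2 fold change -0.049 ± 0.15).

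Added over chains, the alpha chains summed to 14.3 ± 0.526 TPM in LY and 30.5 ± 6.68 TPM in DMSO, and the beta chains to 25.0 ± 2.86 TPM in LY and 45.1 ± 11.8 TPM in DMSO (SD, n = 5 each). LAMC1 alone, the most abundant gamma chain, averaged 63.7 ± 4.03 TPM in LY and 51.7 ± 3.41 TPM in DMSO. Within a library, LAMC1 stood at 8.81 to 14.6 times LAMA5 in LY and 1.69 to 2.93 times in DMSO. Against LAMB2 it stood at 2.33 to 3.49 times in LY and 1.01 to 2.06 times in DMSO. LAMA5 and LAMB2 were therefore lower relative to LAMC1 in LY libraries than in controls.

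**Figure D3:**
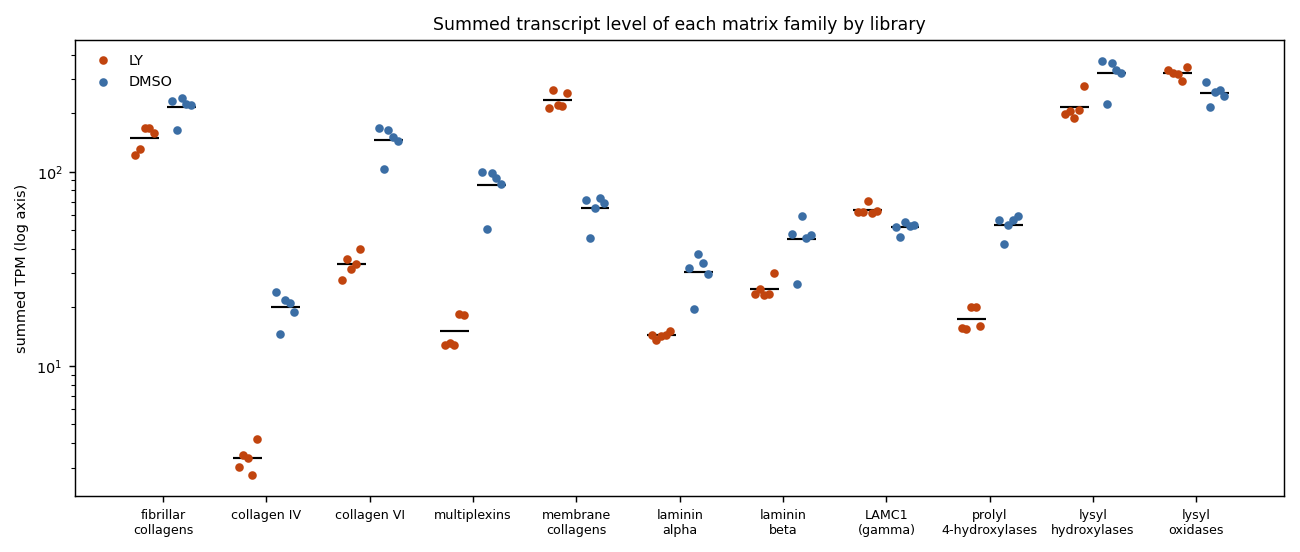
Summed TPM of the members of each family in each library (points; LY left, DMSO right, log axis), with the mean of 5 libraries as a line; LAMC1 is shown as a single gene. Collagen IV, collagen VI, multiplexins, laminin alpha chains and prolyl hydroxylases lie lower in every LY library than in any DMSO library. Membrane collagens, LAMC1 and lysyl oxidases lie higher, the last narrowly (LY at least 291.7 TPM, DMSO at most 290.5 TPM).

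The proteins that link the basement membrane networks fell. NID1 (nidogen), which bridges laminin and collagen IV, averaged 0.788 ± 0.180 TPM in LY and 3.06 ± 0.495 TPM in DMSO (log2 fold change -1.18 ± 0.12). FBLN1 (fibulin 1) averaged 6.21 ± 1.26 TPM in LY and 21.1 ± 2.83 TPM in DMSO (log2 fold change -1.63 ± 0.14). HSPG2 (perlecan) averaged 30.5 ± 3.40 TPM in LY and 39.8 ± 6.28 TPM in DMSO (log2 fold change -0.37 ± 0.13). Its groups overlapped, and it did not pass without LY-3 (-0.30), LY-4 (-0.35), NC-1 (-0.31) or NC-3 (-0.33), nor in the Wilcoxon test. NID2 was at or below 0.2 TPM throughout.

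None of the 6 interstitial and matricellular glycoproteins among the 77 members passed the filter. FN1 (fibronectin) was at 0.335 to 0.674 TPM in LY and 0.337 to 0.602 TPM in DMSO. FBN1 (fibrillin) was at 0.308 to 0.506 TPM in LY and 0.713 to 1.37 TPM in DMSO. THBS1 (thrombospondin 1) was at 0.135 to 0.519 TPM in LY and 0 to 0.0156 TPM in DMSO. SPARC, TNC and POSTN were below 0.1 TPM in every library. Of the 44 members that did not pass the filter, 12 were listed at 0 in all libraries and 3 (COL5A1, COL9A3 and FBN1) reached a TPM of 1 in any. The 12 were COL6A5, COL8A1, COL9A1, COL14A1, COL15A1, COL19A1, COL21A1, COL25A1, COL28A1, LAMA1, LAMB4 and POSTN. COL2A1, COL8A2, COL9A2, COL10A1, COL11A1, COL11A2, COL16A1, COL20A1, COL22A1, COL23A1, COL24A1 and LAMA4 were below 1 TPM in every library. COL12A1, LAMB3 and THBS1 were higher in every LY library than in any control, beside 2.48% of the 8600 genes that were not tested. A further 8 untested members were lower in every LY library than in any control, beside 4.99% of those genes. They were COL3A1, COL5A1, COL8A2, COL9A2, COL9A3, COL11A1, FBN1 and LAMA3. COL12A1, a FACIT collagen, was at 0.295 to 0.624 TPM in LY and 0.00951 to 0.0336 TPM in DMSO.

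Prolyl hydroxylase subunits, which make the hydroxyproline that stabilises the collagen helix, fell. P4HA2 (ENSG00000072682, chromosome 5, 132191838 to 132295315) measured 4.68, 5.29, 4.60, 4.55 and 4.22 TPM in LY and 38.7, 22.7, 34.2, 37.2 and 40.3 TPM in DMSO. The groups were far apart, with a log2 fold change of -2.63 ± 0.15, the largest decrease among the tested members on the log2(TPM + 1) scale. With a pseudocount of 0.5, COL26A1 (-2.87) was lower than P4HA2 (-2.74), and with 0.1 both COL13A1 (-3.75) and COL26A1 (-3.29) were lower than P4HA2 (-2.84). P4HA1 averaged 12.6 ± 2.54 TPM in LY and 18.6 ± 0.852 TPM in DMSO (log2 fold change -0.55 ± 0.13), and its groups did not overlap. P4HA1 stood at 1.88 to 3.38 times P4HA2 in LY libraries and at 0.444 to 0.857 times in DMSO libraries, so the more abundant subunit was P4HA1 in LY and P4HA2 in DMSO. P4HA2 overlaps PDLIM4, SLC22A4 and an antisense gene on the other strand. P4HA3 did not pass the filter.

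Lysyl hydroxylases, which prepare collagen for crosslinks, moved apart. PLOD1 (chromosome 1, 11934205 to 11975538) averaged 51.9 ± 5.38 TPM in LY and 183 ± 34.0 TPM in DMSO (log2 fold change -1.78 ± 0.14), with no overlap. PLOD3 averaged 160 ± 29.8 TPM in LY and 137 ± 25.3 TPM in DMSO and did not pass (log2 fold change 0.22 ± 0.16). PLOD2 averaged 3.04 ± 0.381 TPM in LY and 1.90 ± 0.251 TPM in DMSO and rose (log2 fold change 0.48 ± 0.11). PLOD3 stood at 2.61 to 3.49 times PLOD1 in LY libraries and at 0.724 to 0.762 times in DMSO libraries, a range so narrow in controls that NC-2 did not stand out.

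**Figure D4:**
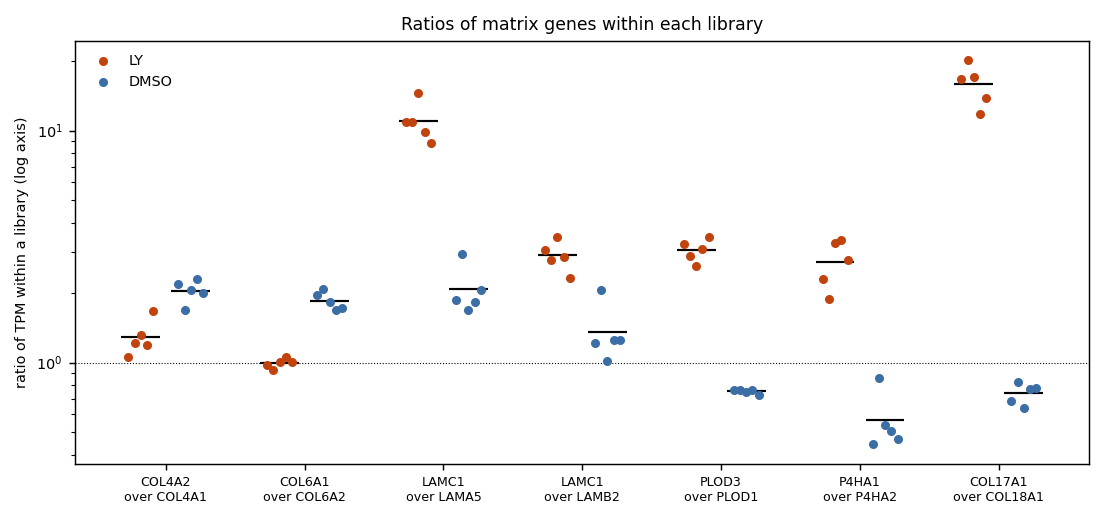
Ratio of 2 members' TPM within each library (points; LY left, DMSO right, log axis), with the mean of 5 libraries as a line and a dotted line at 1. PLOD3 over PLOD1, P4HA1 over P4HA2 and COL17A1 over COL18A1 lie above 1 in every LY library and below 1 in every DMSO library.

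All 3 tested lysyl oxidases rose as deposited. One of them, LOX, reached a TPM of 1 in LY libraries alone, so it had to differ to be tested. LOX (ENSG00000113083, chromosome 5, 122063195 to 122078360) measured 1.59, 1.10, 1.47, 1.56 and 1.31 TPM in LY and 0.771, 0.480, 0.465, 0.542 and 0.675 TPM in DMSO, without overlap (log2 fold change 0.60 ± 0.10). LOXL2 was the most abundant of all 77 members in both groups, with 329, 319, 314, 288 and 340 TPM in LY and 288, 213, 254, 261 and 242 TPM in DMSO. Its groups overlapped narrowly, since the lowest LY library held 287.5 TPM and the highest control 288.1 TPM. Its log2 fold change was 0.34 ± 0.099 as deposited, and it did not pass with median-ratio (0.19), quantile (0.10) or upper-quartile scaling (0.070) or without mitochondrial genes (0.18). LOXL3 averaged 2.11 ± 0.722 TPM in LY and 0.922 ± 0.279 TPM in DMSO (log2 fold change 0.67 ± 0.17), with overlap, and did not pass the Wilcoxon test. LOXL3 overlaps DOK1 and HTRA2. Annotated neighbours also overlap HSPG2 (LDLRAD2), LAMB1 (DLD), LOX (SRFBP1), LOXL2 (ENTPD4) and PLOD3 (ZNHIT1), so some of their reads may be uncertain. LOXL1 and LOXL4 did not pass the filter.

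Summed over all 77 members, matrix transcripts were 1138 ± 76.5 TPM in LY and 1370.0 ± 211 TPM in DMSO, and these sums overlapped through NC-2 alone. NC-2 held 1010.0 TPM, the other controls 1375 to 1534 TPM and the LY libraries 1071 to 1268 TPM. Collagen transcripts summed to 437 ± 35.9 TPM in LY and 545 ± 92.1 TPM in DMSO, with COL17A1 giving 233.5 ± 23.5 TPM of the LY sum and 62.1 ± 11.7 TPM of the DMSO sum. Members that fell had a median GC content of 59.0% in their longest coding transcript, and members that rose 53.2%. GC content moved with direction in all tested genes too, at 54.3% for genes that fell and 46.0% for genes that rose, and its part in the members' differences was not tested.

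Other genes of the same pathway were taken from set lists, with log2 fold changes ± SE in brackets and each list's median to be read beside 0.17 for all tested genes. Their counts stand beside 39.8% of all tested genes higher and 24.9% lower, and several lists are near those shares. Of 12 tested collagen folding and modification genes, 1 rose, 6 fell and 5 did not pass. The prolyl 3-hydroxylases P3H3 (-2.32 ± 0.25) and P3H2 (1.79 ± 0.13) had log2 fold changes of opposite sign. The median over the list was -0.33. SERPINH1, the collagen chaperone of the endoplasmic reticulum, averaged 96.0 ± 32.4 TPM in LY and 113 ± 33.7 TPM in DMSO and did not pass; it was singled out after its values were seen. Of 9 tested collagen export and propeptide removal genes, 4 rose, 3 fell and 2 did not pass (median 0.23). Median-ratio scaling gave 2 higher and 4 lower. PCOLCE, an enhancer of propeptide removal, fell (-1.27 ± 0.16) and the export factor MIA2 rose (0.63 ± 0.097). Of the other crosslinking enzymes, TGM2 rose as deposited (0.45 ± 0.16) but did not pass with quantile or upper-quartile scaling. QSOX1 did not pass as deposited, and was called lower under those scalings, without mitochondrial genes and without NC-2.

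Of 15 tested other matrix glycoproteins, 3 rose, 6 fell and 6 did not pass (median -0.21). Of these 9 calls, 3 had to differ to be tested, since VWA1 and THBS4 reached a TPM of 1 in DMSO libraries alone and THBS2 in LY libraries alone. Median-ratio scaling gave 2 higher and 10 lower. LTBP3, which binds latent TGF-beta, fell (-2.60 ± 0.175), and CCN1, a matricellular protein, rose (3.40 ± 0.29), with 967 ± 69.5 TPM in LY and 101 ± 53.8 TPM in DMSO. Of 7 tested proteoglycans, 2 rose, 4 fell and 1 did not pass (median -0.53). SDC3 (syndecan 3) fell (-1.68 ± 0.13), as did GPC1 (glypican 1, -1.51 ± 0.33), and BCAN (brevican) rose (1.48 ± 0.23). Of 7 tested matrix receptors outside the integrins, 2 rose, 4 fell and 1 did not pass (median -1.88). That median is the value of DAG1 (dystroglycan), which had a wide error (-1.88 ± 0.69) and groups that overlapped. DAG1 did not pass without NC-2, which left 3 lower. BCAM, a receptor of LAMA5 laminins, fell (-2.44 ± 0.17), as did the collagen uptake receptor MRC2 (-2.36 ± 0.17), whereas the hyaluronan receptor CD44 rose (0.79 ± 0.12). The collagen receptors DDR1 (-1.95 ± 0.21) and DDR2 (0.72 ± 0.085) had opposite signs; they were singled out after their values were seen. Of 7 tested integrin subunits that bind these proteins, 2 rose and 5 fell (median -0.60), with ITGA3, a laminin receptor subunit, lower (-1.63 ± 0.14) and the collagen receptor subunit ITGA2 higher (0.59 ± 0.097). ITGA2 reached a TPM of 1 in LY libraries alone and ITGB4 in DMSO libraries alone, so these 2 had to differ to be tested. Omission of any 1 control takes ITGB4 below the 5 libraries of the filter, so it was not tested without NC-2. ITGA6 did not pass without NC-2, which left 3 lower of 6 tested. ITGB1, the other subunit that rose, did not pass with quantile or upper-quartile scaling or without mitochondrial genes.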

How the data were processed

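Transcript levels of PANC-1 cells came from 10 RNA-seq libraries. The authors deposited TPM (transcript abundances scaled for transcript length and library total), which keeps no read totals, so depth and counting intervals are unknown. Columns sum to 999931 to 999966. Per the submitters' processing notes, the builds were hg38, GRCm38 and mm10, with no roles stated; the gene IDs are human. Aligner, counter, annotation and use of strand were not given in the sources used here. The labels' protocols name an RNeasy kit, whereas the series text names Trizol and 4 samples per group. The 5 control columns are named NC-1 to NC-5, and were assigned to DMSO as a group.

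Of 20263 genes, 20148 were named from a symbol table and 76 from GENCODE release 29, which also gave positions, lengths and GC content. Genes that reached a TPM of 1 in 5 or more libraries (11663) were fitted on log2(TPM + 1) with limma 3.58.1 (R 4.3.3, mean-variance trend, group as the only term). A Benjamini-Hochberg adjusted p under 0.05 over all fitted genes counted as passing. The fit was tested on simulated data with planted changes. The members, the lists and the genes to name were chosen with earlier results of these data known. Every member past the filter is named, except 1 that is counted but not reported here. Values of each library are given for called members with a mean of at least 5 TPM in the higher group and the largest changes (up to 6 in each direction), and for set chains and enzymes. In each other list the 2 called genes with the largest change are named, with the largest the other way. Alternatives were other pseudocounts, filters, scalings and limma settings, omission of each library in turn, and a Wilcoxon test in its exact form.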

Additional observations from a re-analysis of the deposited data

Results flagged for a closer look

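Among the 33 tested members, 66 groups of 5 libraries were examined for a library whose gap to its nearest neighbour was over 0.71 of the group's range (Dixon's ratio), and 9 were found; chance gives about 1 in 20 groups. NC-2 was the low library in 3 of them: COL17A1 (41.9 TPM), COL18A1 (50.6 TPM) and COL6A2 (28.2 TPM). The same library had the highest mitochondrial share, and its part in these values was not tested. NC-1 was high for COL1A1 (3.82 TPM). Among LY libraries, LY-1 was low for COL6A3 (3.82 TPM), LY-3 was high for LAMC1 (70.8 TPM), LY-2 was low for PLOD2 (2.37 TPM), and LY-5 was high for LAMC3 (3.50 TPM) and PLOD3 (211 TPM).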

How the results depend on the processing

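Of the 33 tested members, 24 kept direction and call under every alternative that gave a value for them. The others were COL5A2, COL7A1, HSPG2, LAMB2, LAMC1, LAMC3, LOXL2, LOXL3 and PLOD3. Signs turned for COL5A2 without LY-1 (0.034; -0.13 to 0.034 over single libraries left out), LAMC3 with quantile normalization (0.14) and without NC-4 (0.00090; -0.16 to 0.00090), and PLOD3 with quantile (-0.063) and upper-quartile scaling (-0.044); none of these 3 had passed. With a minimum TPM of 5, 21 members were tested, 4 rose and 15 fell, with a median log2 fold change of -1.55. With no filter 65 were tested and the median was -0.088, since the added members are near 0. The median was -0.78 with a pseudocount of 0.1, -0.82 with upper-quartile scaling and -0.76 without mitochondrial genes, where 35 members were tested. It ran from -0.75 to -0.53 when 1 library was left out. The filter still asked for 5 libraries, so the members tested changed as well. LOX dropped out without any 1 LY library (32 tested, median -0.75 to -0.70). COL13A1 and COL1A1 dropped out without any 1 control (31 tested, median -0.57 to -0.53). The part of the filter in these shifts was not tested. The median of the members less that of all genes was -0.78 as deposited and -0.76, -0.72 and -0.74 with median-ratio, quantile and upper-quartile scaling. Genes called lower among all genes numbered 4371 with upper-quartile scaling against 2899 as deposited. Median-ratio scaling combined with the omission of NC-2 was chosen after seeing the data; 10 members rose and 18 fell. No paired analysis was possible because the control columns carry numbers that cannot be tied to single samples. TPM keeps no depth, so values under 1 TPM have no known counting error.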

Other observations

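Partner chains of one collagen were far apart in level, also in DMSO controls. COL1A2 stood at 50.7 to 147.5 times COL1A1 in LY libraries and 25.7 to 42.2 times in DMSO libraries, and COL5A2 at 369 to 501 times COL5A1 in LY libraries and 62.0 to 110.5 times in DMSO libraries. COL1A1 and COL5A1 were below 1 TPM in every LY library, where the counting error is unknown. LOXL2 stood at 185 to 290 times LOX in LY libraries and 358 to 546 times in DMSO libraries.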
